A study of Drosophila melanogaster with 20 samples.

Results

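Glutathione transferases join the tripeptide glutathione to reactive, electrophilic compounds, and UDP-glycosyltransferases (Ugt) join a sugar from a UDP-sugar to small lipophilic compounds. Both reactions make the product more soluble in water and so easier to export. In insects both families are known for the detoxification of insecticides, plant toxins and products of lipid oxidation, and the delta (GstD) and epsilon (GstE) classes are expanded in insects. Surface glia, the perineurial and subperineurial cells that envelop the fly brain, form its barrier to the hemolymph.

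The levels of 69 genes of these families were examined in the adult Drosophila melanogaster brain. The genes were those with a probe set whose single gene symbol began with GstD, GstE, GstO, GstS, GstT, GstZ or Ugt followed by a digit, and they were 69 of 11982 genes with such a probe set. The symbol rule used no measured value, except that the brighter probe set represented the 2 genes with 2 probe sets, GstE9 and GstO2. These families were themselves chosen with earlier results of these data known. There were 34 glutathione transferase genes, of which 11 were GstD, 13 GstE, 3 GstO, 1 GstS, 4 GstT and 2 GstZ, and 35 Ugt genes in 13 numbered families. The largest Ugt families were Ugt37 with 8 genes, Ugt35 with 6, and Ugt36 and Ugt303 with 4 each.

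The samples were 20 single-channel arrays in 4 groups of 5. One group was whole brain of the wild-type strain Canton S, at 5 brains per array. Neurons (ELAV-GFP), all glia (REPO-GFP) and surface glia (9.137-GFP) were sorted by their green fluorescence from 10 to 15 brains per array. The genes elav and repo are standard markers of neurons and of glia, and what drives the fluorescence in 9.137 is not described in the labels. Every group held both sexes, and the age of the adults is not given in the labels. Brains for sorting were dissociated with collagenase and DNase at 37 °C, with shaking at 1000 rpm for the neuron sort and at 500 rpm for both glial sorts, lasting 20 min except for surface glia, where it lasted 5 min. Cell type therefore cannot be told apart from the line and the dissociation between sorts, nor from these and sorting against whole brain. All levels below are log2 values of 1 probe set per gene, and differences are differences of log2 group means with the standard error (SE) of the fit. A gene was called higher or lower at an adjusted p under 0.05 (limma, Benjamini-Hochberg over 18769 probe sets) and a log2 difference of at least 1. Pools of brains were separate samples in the labels, which do not say whether they were separate cultures or crosses, so p-values measure the spread between these pools.

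Replicate arrays differed least in whole brain, where probe sets had a median within-group SD of 0.153 log2 units. It was 0.27 for neurons, 0.592 for all glia and 0.581 for surface glia. Array 4 of all glia and array 4 of surface glia correlated least with the other arrays of their groups, with a mean r across probe sets of 0.772 and 0.785. In the sort labelled all glia, 7 neuronal markers had array means from 11.9 to 12.5, against 12.3 to 12.6 in neurons, and none was called lower than in neurons by limma (0 also at an unadjusted p under 0.05). Of 5 glial markers, all were called higher than neurons in both glial sorts, while against whole brain 1 was higher and 3 were lower in all glia, and 1 was higher and 1 lower in surface glia. Among them repo had a log2 level of 7.85 ± 0.66 (SD, n = 5) in all glia, 10.7 ± 0.44 in surface glia, 10.1 ± 0.31 in whole brain and 5.62 ± 0.94 in neurons. Another, bnb, was at 12.9 ± 0.41 in all glia, 12.1 ± 0.39 in surface glia and 13.1 ± 0.10 in whole brain. Gat, a marker of astrocyte-like glia, lay within the negative controls in both glial sorts and at 11.6 ± 0.37 in whole brain. Of 8 surface-glia markers all were called higher in surface glia than in neurons. Gli, one of them, lay within the negative controls in both. Against whole brain, surface glia had 5 of these 8 markers called higher and 2 lower, and against all glia 4 higher and 0 lower. The all-glia sort held these markers too, with 7 called higher than neurons, and 5 higher and 2 lower than whole brain. Array means of the list were 8.05 to 10.1 in all glia, 10.2 to 10.8 in surface glia and 3.96 to 4.56 in neurons. The effect of these shared markers on differences between the glial sorts was not tested. Beside these marker counts, 10.4% of all probe sets were called higher in surface glia than in neurons. Against whole brain 31.6% were higher and 19.4% lower in surface glia, and against all glia 2.46% and 2.29%. In all glia 3.18% were higher than in neurons, and 24.7% were higher and 14.8% lower than in whole brain. Of the 7 neuronal markers, 4 were called lower in surface glia than in neurons, beside 15% of all probe sets. The neuronal gene elav was still at 12.02 ± 0.69 in surface glia against 13.0 ± 0.13 in neurons, and Rim was at 9.31 ± 1.71 against 11.9 ± 0.23. A lower level of a gene in a sorted group can mean fewer cells of a type or less RNA per cell, which cannot be told apart in such samples.

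The level that absent transcripts reach was read from 44 negative control probe sets. A gene is called within the controls in a group if none of its 5 arrays exceeded that array's 95th percentile of these probe sets. The percentile averaged 3.73 for whole brain and 4.40 for neurons, and it was higher in both glial sorts, at 5.15 for all glia and 5.23 for surface glia. Of the 69 genes, 25 lay within the controls in whole brain, 32 in neurons and 33 in all glia, against 25 in surface glia, and 21 lay there in all 4 groups. These 21 were 14 Ugt genes, 6 GstD genes and GstE5. Above the controls on all 20 arrays were 11 genes, 4 of them GstE and 1 Ugt. A difference from a group within the controls is given below as "at least", counted from that percentile. A difference is called uncertain in size where the dimmer group's mean lay under the percentile but at least 1 of its arrays exceeded its own.

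**Figure D1:**
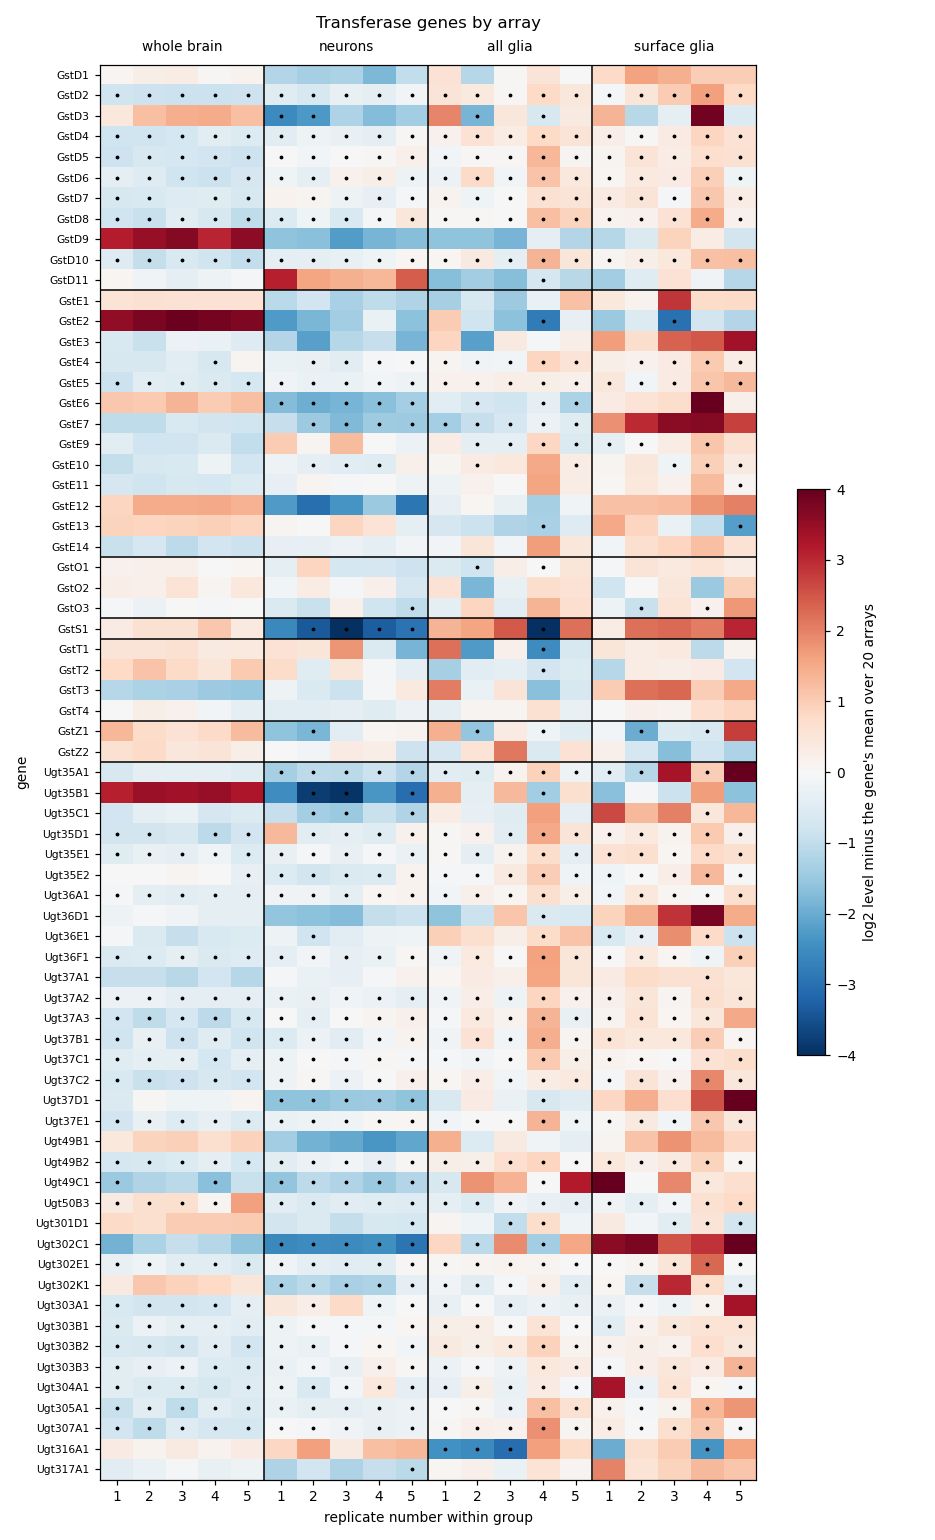
Log2 level of each of the 69 genes (rows, grouped by subfamily) on each of the 20 arrays (columns, 5 per group), as the difference from the gene's own mean over all arrays. Colours are limited to 4 log2 units either side, and a dot marks a level that did not exceed that array's 95th percentile of the negative controls. The 14 Ugt and 6 GstD genes within the controls in all 4 groups are dotted throughout, while GstE7 and Ugt302C1 stand out in surface glia and GstE2, GstD9 and Ugt35B1 in whole brain.

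Nearly all transferase genes called between surface glia and neurons were higher in surface glia. Of the 69 genes, 21 were called higher and 1 was called lower, while 10.4% of all probe sets were called higher and 15% lower. The median log2 difference was 0.658 for the members and 0.36 for all probe sets. The 21 comprised 4 GstD, 5 GstE, GstS1, 1 GstT and 10 Ugt genes, and 1 of them, GstD2, lay within the controls in both groups. The arrays of surface glia lay above all those of neurons for 31 genes, against 21.1% of all probe sets, and below them for 1, GstD11, against 8.51%.

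Between surface glia and all glia, 10 genes were called higher, against 2.46% of all probe sets, with GstE (4) and Ugt (5) genes and GstD1. No gene was called lower, while 2.29% of all probe sets were, and 1 gene was lower at an unadjusted p under 0.05. The surface-glia arrays lay above all those of all glia for 6 of the 69 genes, against 1.59% of all probe sets, and below them for none, against 0.948%. This comparison depends on how the spread is estimated, since fitting these 2 groups alone left 1 gene called, GstE7, and 0.117% of all probe sets higher.

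Against whole brain, 30 genes (43.5%) were higher in surface glia, beside 31.6% of all probe sets, and 6 (8.7%) were lower, beside 19.4%. Of the 30, 9 lay within the controls in both groups and 2 more, GstD7 and Ugt35D1, within them in surface glia. The arrays lay above those of whole brain for 41 genes (39.6% of all probe sets) and below them for 6 (17.2%). Once the table was quantile normalized again, the higher and lower counts were 12 and 5, with 14.8% and 14.1% of all probe sets. That normalization moved the median log2 difference of all probe sets by -0.208 in this comparison and by -0.225 against neurons, where it left 19 genes higher and 1 lower.

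Some markers of other cells that could enter the sort were also higher in surface glia, while others were lower or not called. Of 11 fat body genes, surface glia were called above neurons in 6 and below them in 2. The array means of this list ran from 7.14 to 8.17 in surface glia and from 5.84 to 6.05 in neurons, with Fbp1 and Fbp2 within the controls in surface glia. The yolk protein genes Yp1 and Yp2 reached log2 levels of 12.7 ± 0.41 and 11.7 ± 1.13 in surface glia. Apoltp and FASN1, the 2 called lower than in neurons, were at 5.76 ± 0.89 and 9.92 ± 1.68 in surface glia. In neurons Apoltp and FASN1 were at 7.54 ± 0.61 and 11.2 ± 0.51. Of 10 hemocyte genes, 6 were called higher than in neurons, with array means from 6.92 to 7.56 in surface glia and from 4.84 to 5.08 in neurons, and He lay within the controls. Against all glia, 3 fat body genes and 1 hemocyte gene were called higher and 2 fat body genes lower. Of 4 photoreceptor genes, 2 were called higher than in neurons, and of 5 tracheal genes limma called none (3 higher at an unadjusted p under 0.05). Against whole brain 1 and 4 were called higher. The shares of all probe sets called higher and lower in surface glia were 10.4% and 15% against neurons. They were 2.46% and 2.29% against all glia, and 31.6% and 19.4% against whole brain. The part of these markers in the transferase levels was not tested.

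**Figure D2:**
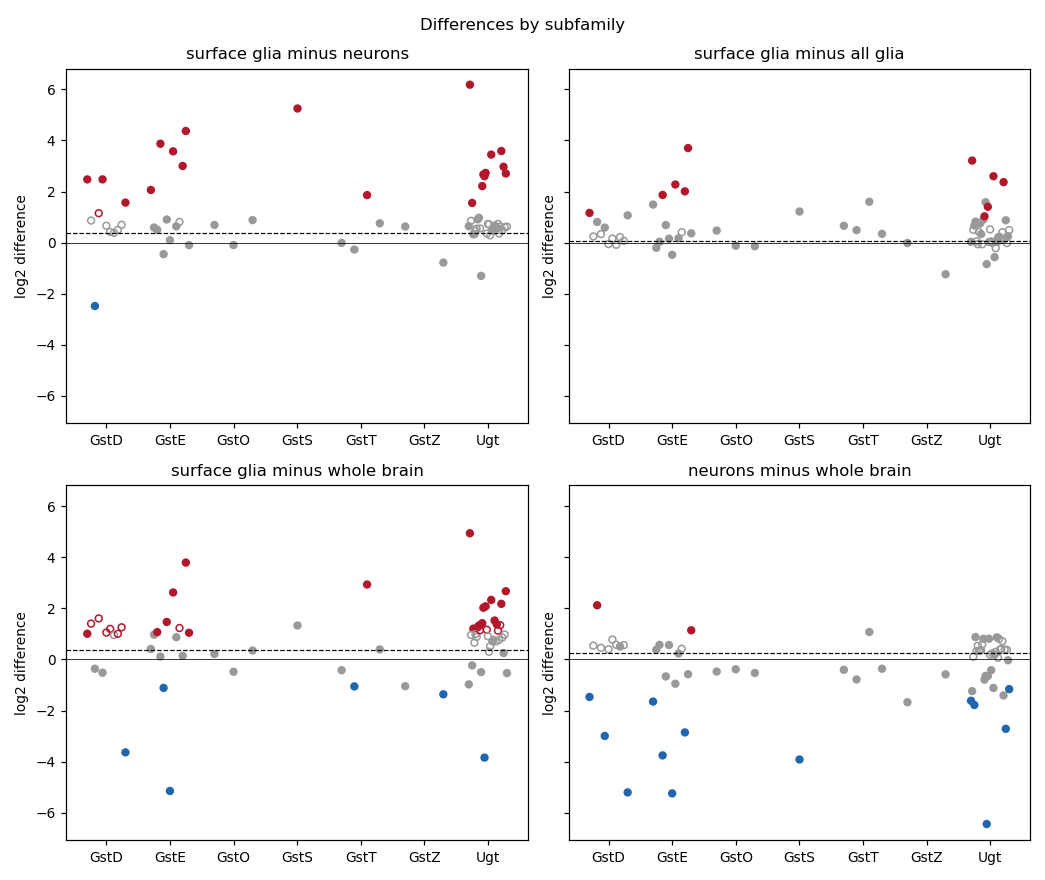
Log2 difference of each gene (points, spread sideways for legibility) by subfamily in 4 comparisons. Red and blue mark genes called higher and lower and grey those not called, and the dashed line is the median of all 18769 probe sets. Open circles mark genes within the controls in the brighter of the 2 groups, whether or not the dimmer group exceeded them. In surface glia against whole brain the red open circles are 9 genes within the controls in both groups, 5 of them GstD, and GstD7 and Ugt35D1. The filled red points of GstE and Ugt recur in all 3 panels of surface glia.

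GstE7 was the clearest surface-glia gene among the epsilon transferases. Its log2 levels were 7.04, 8.21, 8.84, 8.89 and 7.97 on the 5 surface-glia arrays and 3.88, 4.29, 4.55, 4.99 and 4.74 in all glia. They were 4.31, 3.77, 3.45, 3.80 and 3.77 in neurons and 4.21, 4.22, 4.61, 4.5 and 4.44 in whole brain. Every surface-glia array lay far above every other array, and all glia lay within the controls. The log2 difference was at least 3.04 over all glia (adjusted p = 1.02e-06) and 3.79 over whole brain (SE 0.30, adjusted p = 2.14e-08), a 13.9-fold higher level. Over neurons it was 4.37 (SE 0.30), uncertain in size because 1 neuron array just exceeded the controls.

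Ugt302C1 showed the same pattern among the UDP-glycosyltransferases, with intermediate levels in all glia. Its log2 levels were 9.73, 9.88, 8.63, 9.00 and 11.3 in surface glia and 6.96, 5.06, 8.02, 4.74 and 7.67 in all glia. In neurons they were 3.55, 3.61, 3.58, 3.65 and 3.20, all within the controls, and in whole brain 4.23, 4.85, 5.20, 4.99 and 4.52. Surface glia overlapped no other group, and all glia overlapped whole brain on 2 arrays. The log2 difference of surface glia was at least 5.31 over neurons (adjusted p = 1.13e-07), 4.94 over whole brain (SE 0.55, adjusted p = 1.49e-06) and 3.21 over all glia (SE 0.55, adjusted p = 0.0018). The last call was lost when only these 2 groups were fitted (adjusted p = 0.106).

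GstE3, also of the epsilon class, was highest in surface glia and was called there against each of the others. It stood at log2 levels of 8.97, 7.98, 9.65, 9.77 and 10.6 in surface glia and 8.15, 5.12, 7.63, 7.20 and 7.54 in all glia. The neuron arrays were at 6.10, 5.11, 6.15, 6.37 and 5.42, and the whole-brain arrays at 6.67, 6.39, 7.06, 7.01 and 6.76. All surface-glia arrays exceeded those of neurons and whole brain, and the lowest lay under the highest all-glia array. Its log2 differences were 3.57 over neurons (SE 0.49), 2.62 over whole brain and 2.27 over all glia (adjusted p = 0.00895). The last call was lost with array weights and in the fit of these 2 groups, at adjusted p = 0.183.

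GstD1, a delta transferase long used as a reporter of the oxidative stress response and able to break down DDT, differed by smaller amounts. Its log2 levels in surface glia were 11.0, 11.8, 11.6, 11.2 and 11.2, and in all glia 10.8, 9.07, 10.3, 10.7 and 10.2. In neurons it was at 9.04, 8.89, 8.95, 8.44 and 9.23, and in whole brain at 10.3, 10.5, 10.5, 10.3 and 10.4. Surface glia lay above every array of the other groups, whereas all glia and whole brain overlapped. The log2 difference was 2.47 over neurons (SE 0.27, adjusted p = 1.89e-06), 1.16 over all glia and 1.01 over whole brain, both near the minimum of 1. The difference from whole brain fell below it without whole-brain array 1 or 4 or surface-glia array 2 or 3, and the call against all glia was lost without all-glia array 2 and in the fit of 2 groups.

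Besides Ugt302C1, 4 Ugt genes were called higher in surface glia in all 3 of its comparisons. How many of all probe sets were called higher in all 3 was not counted. Ugt36D1 was at log2 levels of 7.37, 7.89, 9.38, 10.3 and 7.96 in surface glia, against group means of 5.98 ± 1.00 (SD, n = 5) in all glia, 5.13 ± 0.42 in neurons and 6.24 ± 0.13 in whole brain. Its log2 difference was 3.45 over neurons (SE 0.48), 2.60 over all glia and 2.33 over whole brain, a 5.04-fold higher level. The lowest surface-glia array of Ugt36D1 lay under its highest all-glia array, at 7.60. Ugt37D1 was at 6.44, 7.06, 6.27, 8.17 and 10.3 in surface glia, and array 5 stood well above the next highest. Its means were 5.28 ± 0.40 in all glia, 5.46 ± 0.27 in whole brain and 4.06 ± 0.08 in neurons, where it lay within the controls. The log2 difference was at least 3.25 over neurons, 2.18 over whole brain and 2.37 over all glia, and surface glia overlapped no other group. In the 2-group fit the calls over all glia were lost for Ugt36D1 (adjusted p = 0.132) and for Ugt37D1 (adjusted p = 0.21).

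The remaining pair had narrower margins. Ugt35C1 stood at log2 levels of 8.17, 6.82, 7.53, 5.98 and 6.86 in surface glia, and its highest all-glia array, number 4, reached 7.16. Its log2 difference was 2.08 over whole brain (SE 0.38), 2.73 over neurons, uncertain in size, and 1.40 over all glia (adjusted p = 0.0356). The last call was lost under 9 of 28 alternatives, among them quantile normalization and the 2-group fit (adjusted p = 0.361). Ugt317A1 was at 7.62, 6.21, 6.53, 6.96 and 6.75 in surface glia, with all glia at 5.39 to 6.21. Its log2 difference was 2.21 over neurons (SE 0.23), 1.42 over whole brain and 1.03 over all glia, and the last was lost without all-glia array 3, surface-glia array 1 or surface-glia array 4, and in the 2-group fit.

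**Figure D3:**
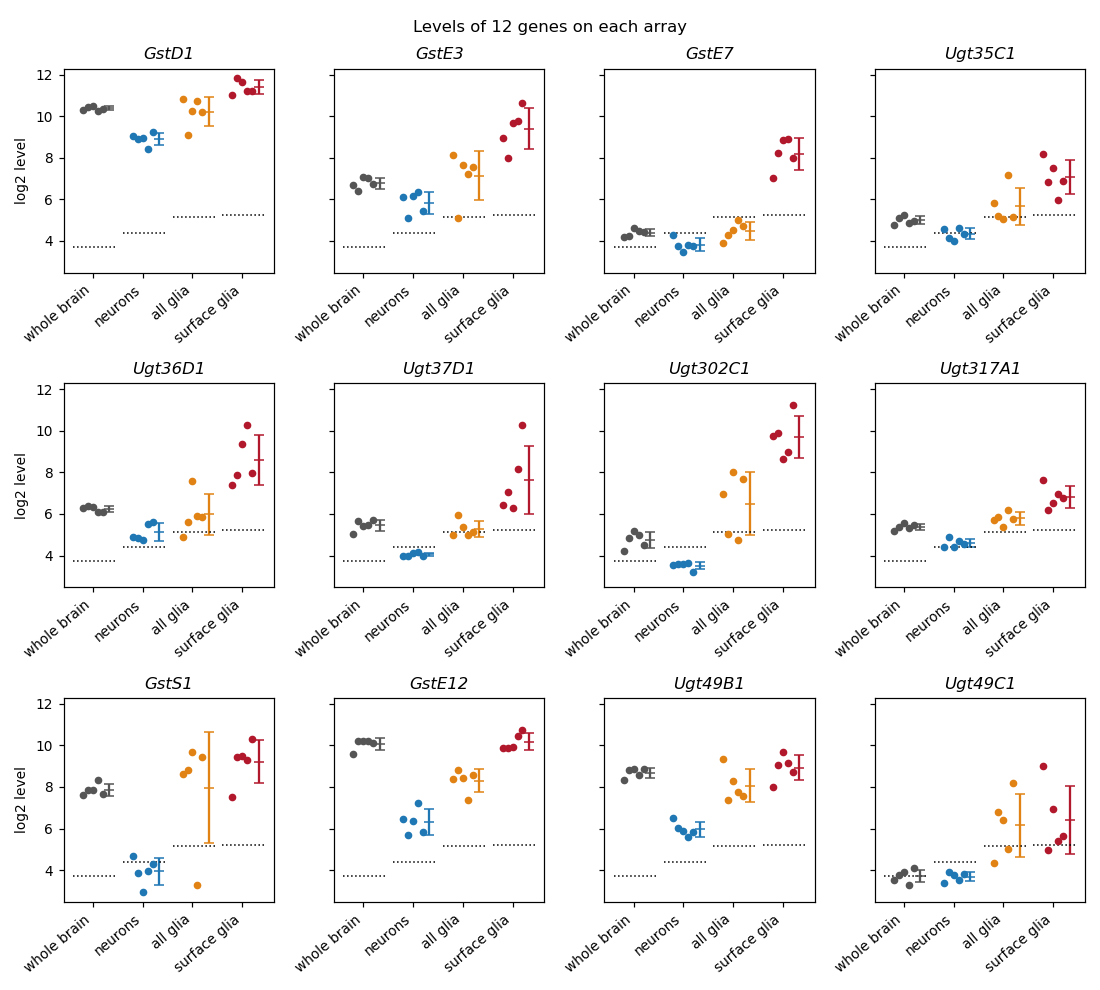
Log2 levels of 12 genes on each array (points, 5 per group) with the group mean and SD (bars), and the group's mean 95th percentile of the negative controls (dotted). The upper 8 panels hold the genes called higher in surface glia against neurons, all glia and whole brain alike. The lower 4 hold genes called higher than neurons in both glial sorts, among which GstS1 has 1 all-glia array at 3.27.

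GstE6 and GstE12, epsilon genes that complete the list against all glia, behaved differently from each other. GstE12 was at log2 levels of 9.87, 9.88, 9.93, 10.5 and 10.7 in surface glia and 8.38, 8.80, 8.42, 7.38 and 8.56 in all glia. In neurons it was at 6.45, 5.68, 6.34, 7.23 and 5.82, and in whole brain at 9.58, 10.2, 10.2, 10.2 and 10.1. The groups were ordered with neurons lowest, then all glia, and surface glia and whole brain overlapping at the top. The log2 difference of surface glia was 3.87 over neurons (SE 0.30, adjusted p = 1.40e-08), 1.87 over all glia (SE 0.30) and 0.12 over whole brain (adjusted p = 0.749). The call over all glia had adjusted p = 0.0576 in the least favourable of its alternatives and was lost in the 2-group fit and with array weights.

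GstE6 was at log2 levels of 5.92, 6.13, 6.29, 10.3 and 5.79 in surface glia, so that array 4 lay far above the rest. It lay within the controls in neurons, and its whole-brain arrays stood between 6.62 and 6.94. The log2 difference over neurons was at least 2.49. Over all glia it was 2.01, uncertain in size (adjusted p = 0.0474), and it came to 1.16 (adjusted p = 0.0016) without surface-glia array 4. That call was lost under 16 of 28 alternatives.

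The genes called higher than neurons in both glial sorts were 9 in number: GstD1, GstE12, GstS1, Ugt302C1, Ugt317A1, Ugt35B1, Ugt35C1, Ugt49B1 and Ugt49C1. Between all glia and neurons 9 genes were called higher in all and 1 lower, against 3.18% and 4.35% of all probe sets, and the median log2 difference was 0.572 for the members and 0.268 for all probe sets. Both comparisons share the neuron arrays, and the share of all probe sets called higher in both was not counted. The all-glia sort carried neuronal markers at neuronal levels, as given above, and the effect of this on these differences was not tested.

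GstS1, the single sigma-class gene, whose enzyme conjugates the lipid oxidation product 4-hydroxynonenal, was near the controls in neurons. Its log2 levels there were 4.68, 3.88, 2.93, 3.96 and 4.31. In surface glia they were 7.54, 9.44, 9.51, 9.30 and 10.3, in all glia 8.62, 8.82, 9.70, 3.27 and 9.44, and in whole brain 7.59, 7.87, 7.85, 8.34 and 7.65. All-glia array 4 lay with the neurons, and the other 4 all-glia arrays lay above all neuron and whole-brain arrays. The log2 difference over neurons was 5.27 for surface glia (SE 0.86, adjusted p = 1.94e-04) and 4.02 for all glia (SE 0.86, adjusted p = 0.00642), and whole brain exceeded neurons by 3.91. All 3 differences are uncertain in size. Over whole brain surface glia were at 1.36 (adjusted p = 0.169) and all glia at 0.11, neither of which passed.

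In the Ugt49 family, Ugt49B1 and Ugt49C1 were higher than neurons in both glial sorts, and Ugt49B2 lay within the controls in every group. Ugt49B1 had log2 levels of 8.02 to 9.70 in surface glia, 7.35 to 9.34 in all glia, 8.33 to 8.85 in whole brain and 5.58 to 6.51 in neurons. The neuron arrays lay below all others, and the other groups overlapped. The log2 difference from neurons was 2.97 for surface glia (SE 0.34, adjusted p = 3.07e-06) and 2.09 for all glia. Ugt49C1 was within the controls in neurons and ranged from 4.36 to 8.17 in all glia and from 4.97 to 9.01 in surface glia. Its log2 difference from neurons was at least 2.00 for surface glia and at least 1.75 for all glia, and the latter call was lost under 5 of 28 alternatives, quantile normalization among them.

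A second pattern was a high level in whole brain that was seen in none of the sorts. GstE2, GstD9 and Ugt35B1 were lower than whole brain in all 3 sorts. The 3 comparisons share the whole-brain arrays, and the share of all probe sets lower in all 3 was not counted. GstE2 had log2 levels of 11.5, 11.7, 11.9, 11.8 and 11.7 in whole brain, and 5.68, 6.10, 6.56, 7.68 and 6.29 in neurons. In all glia it stood at 8.96, 7.14, 6.31, 5.15 and 7.61, and in surface glia at 6.47, 7.39, 4.95, 7.19 and 6.78. The sorts overlapped one another, and all their arrays lay far under whole brain.

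The log2 difference of GstE2 from whole brain was -5.24 in neurons (SE 0.56, adjusted p = 8.48e-07), -4.67 in all glia and -5.15 in surface glia. In fold terms the level in neurons was 37.8-fold lower. GstE2 differed by 0.09 between surface glia and neurons, which did not pass.

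GstD9 had log2 levels of 10.9, 11.2, 11.4, 10.8 and 11.3 in whole brain. It stood at 6.13, 6.07, 5.50, 5.89 and 6.05 in neurons, at 6.14, 6.15, 5.89, 7.37 and 6.58 in all glia, and at 6.60, 7.18, 8.64, 8.03 and 7.02 in surface glia. Surface glia exceeded every neuron array, and all 3 sorts lay below whole brain. The log2 difference from whole brain was -5.20 in neurons (SE 0.33, adjusted p = 8.33e-10). It was -4.71 for all glia and -3.64 for surface glia, which exceeded neurons by 1.57 (SE 0.33).

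Ugt35B1, described earlier as a transferase of the antenna, had log2 levels of 10.3, 10.6, 10.5, 10.7 and 10.4 in whole brain. In all glia it was at 8.59, 6.80, 8.45, 5.78 and 7.80, in surface glia at 5.48, 7.07, 6.30, 8.84 and 5.52, and in neurons at 4.67, 3.36, 3.24, 4.83 and 4.11. Neurons lay below every glial array, and both glial sorts overlapped. Relative to whole brain the log2 difference was -3.00 in all glia (SE 0.58), -3.84 in surface glia and -6.44 in neurons, the last uncertain in size. Over neurons it was 3.44 in all glia and 2.60 in surface glia, also uncertain in size.

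Markers of astrocyte-like, ensheathing and cortex glia were also lower in the sorts than in whole brain. Of 5 astrocyte-like and ensheathing genes 4 were called lower than whole brain in each glial sort and 5 in neurons, and both cortex glia genes were lower in all 3 sorts. The share of all probe sets called lower was 14.8% in all glia, 19.4% in surface glia and 9.85% in neurons. Gs2, not called lower in the glial sorts, was at 12.7 ± 0.40 in all glia, 12.8 ± 0.13 in surface glia and 13.2 ± 0.09 in whole brain. The array means of the astrocyte-like and ensheathing list ran from 10.9 to 11.5 in whole brain, 5.99 to 6.72 in neurons, 5.59 to 7.38 in all glia and 6.02 to 6.94 in surface glia. Within it, alrm went from 11.6 ± 0.24 in whole brain to 5.38 ± 2.44 in all glia. The part of these glial types in the levels of GstE2, GstD9 and Ugt35B1 was not tested, and neither was that of RNA quality. The 3′ probe set of the control transcript eIF-4a exceeded its 5′ probe set by 2.25 ± 0.23 log2 units in whole brain. This excess was 4.96 ± 0.47 for neurons, 4.24 ± 1.36 for all glia and 4.06 ± 0.32 for surface glia. For the control GAPDH it was 3.22 ± 0.15 in whole brain, 4.52 ± 0.53 for neurons, 4.28 ± 0.62 for all glia and 3.65 ± 0.65 for surface glia, the last above whole brain by less than its own SD.

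**Figure D4:**
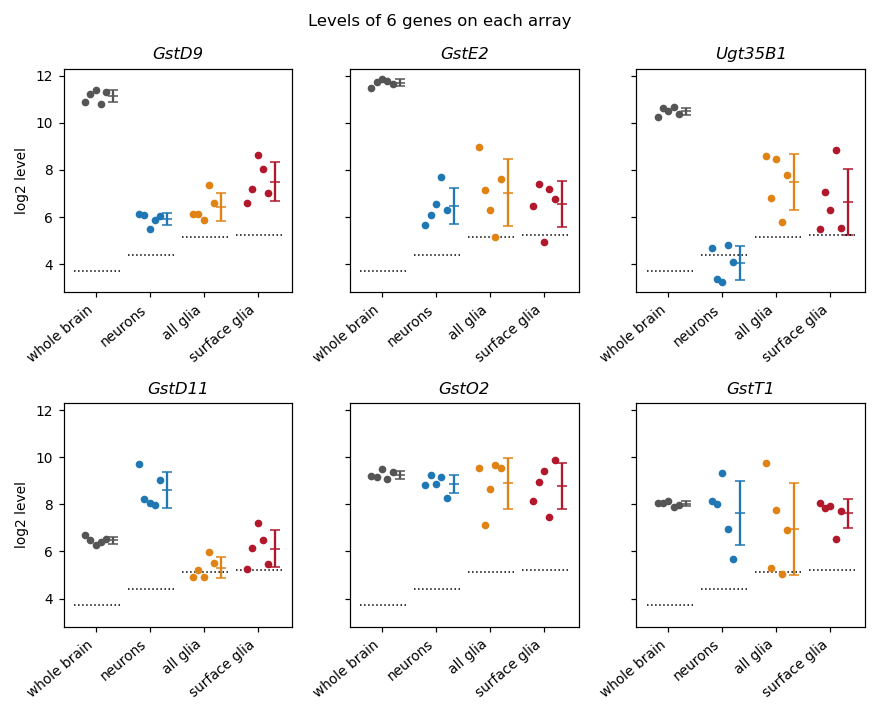
Log2 levels of 6 genes on each array (points, 5 per group) with the group mean and SD (bars), and the group's mean 95th percentile of the negative controls (dotted). The upper panels hold the genes called lower than whole brain in all 3 sorts. Below, GstD11 is highest on the 5 neuron arrays, while GstO2 and GstT1 overlap between all groups.

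Other members were lower than whole brain in 1 or 2 sorts. Against whole brain, all glia had 10 genes lower and 19 higher (14.8% and 24.7% of all probe sets), and neurons had 13 lower and 2 higher (9.85% and 3.79%). Of the 19 genes higher in all glia, 10 lay within the controls in both groups. After quantile normalization 2 were higher and 9 lower, and without all-glia array 4 10 were higher.

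GstE13 had log2 levels between 7.94 and 8.04 in whole brain, between 5.79 and 6.58 in all glia, and between 4.89 and 8.59 in surface glia. Its log2 difference from whole brain was -1.80 in all glia (SE 0.47) and -1.11 in surface glia, and the second call was lost under 18 of 28 alternatives. Ugt301D1 was lower than whole brain by 1.62 in neurons (log2, SE 0.27) and by 1.00 in all glia, a call lost under 7 of 28 alternatives. Ugt50B3 exceeded the controls on 1 array in all, whole-brain array 5 at a log2 level of 4.0, and its 2 calls against whole brain were lost without that array.

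Neurons were lower than whole brain in 13 genes, of which 8 were transferases of the Gst classes and 5 were Ugt genes. Beside GstE2, GstD9, GstS1 and Ugt35B1, which are described above, they included GstE12 at a log2 difference of -3.75 (SE 0.30), GstE6 lower by at least 2.34, GstD1 at -1.47 and Ugt49B1 at -2.71. The 5 neuron arrays lay below all whole-brain arrays for 21 genes (30.4%) and above them for 23 (33.3%). The shares of all probe sets were 17.3% and 34.1%, the second near that of the members.

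GstD11 went the other way. Of the members only GstD11 was called higher in neurons than in each other group, a pattern not counted over all probe sets. Its log2 levels were 9.73, 8.21, 8.06, 7.96 and 9.04 in neurons and 6.69, 6.48, 6.27, 6.41 and 6.54 in whole brain. In surface glia they were 5.25, 6.15, 7.21, 6.5 and 5.47, and in all glia 4.91, 5.22, 4.93, 5.96 and 5.52. Every neuron array lay above every other array, and all glia lay below whole brain. The log2 difference of neurons was 2.12 over whole brain (SE 0.37, adjusted p = 3.01e-04). Surface glia were at -2.48 and all glia at -3.29 relative to neurons (SE 0.37 each). None of the 28 alternatives ended any of the 4 calls of GstD11.

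GstE9 was the other gene higher in neurons than in whole brain, by a log2 difference of 1.14 (SE 0.34), on the brighter of its 2 probe sets. The dimmer one lay within the controls in both groups, at 0.10. That call was lost without neuron array 1 or 3, after quantile normalization and with the mean of both probe sets. The probe sets also disagreed in surface glia against neurons, at -0.10 and at 1.18, where the second was called higher although its surface-glia mean of 3.80 lay under the percentile of the controls.

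Few genes of the small classes passed the test. Of the 3 omega genes, GstO1, GstO2 and GstO3, none was called in any of the 6 comparisons. GstO2 had a mean log2 level of 9.25 ± 0.17 (SD, n = 5) in whole brain and of 8.87 ± 0.38 in neurons, beside 8.90 ± 1.07 for all glia and 8.77 ± 0.98 for surface glia. Its log2 differences ran from -0.48 to 0.03 with an SE of 0.45, while those of its other probe set ran from -0.53 to 0.54. GstO1 was at 5.88 ± 0.09, 5.41 ± 0.69, 5.62 ± 0.56 and 6.10 ± 0.24 in the same order, and its largest log2 difference, 0.69 between surface glia and neurons, had adjusted p = 0.0567. The largest of GstO3, 1.02 between all glia and neurons, had adjusted p = 0.0802.

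Of the 4 theta genes, GstT3 was higher in surface glia. Its log2 levels were 8.80, 9.97, 10.1, 8.76 and 9.29 in surface glia, 7.57, 7.20, 6.93, 7.72 and 8.17 in neurons and 6.63, 6.51, 6.48, 6.34 and 6.25 in whole brain. In all glia they ranged from 6.10 to 9.84 and overlapped every group. The log2 difference of surface glia was 2.94 over whole brain (SE 0.48, adjusted p = 6.03e-05), 1.86 over neurons and 1.60 over all glia, which was not called. All glia exceeded whole brain by 1.34, a call lost without all-glia array 1 or 3 and in the 2-group fit.

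GstT2 was lower than whole brain by a log2 difference of 1.54 in all glia (SE 0.31) and 1.05 in surface glia, the latter lost under 4 of 28 alternatives. GstT1 was not called in any comparison, with log2 levels from 5.04 to 9.77 in all glia and from 5.68 to 9.31 in neurons. GstT4 was higher in surface glia than in neurons by 0.76 (SE 0.21, adjusted p = 0.0095), with arrays that did not overlap, but below the minimum difference of 1. The zeta class, to which maleylacetoacetate isomerase of tyrosine breakdown belongs, had 1 call. GstZ2 was at -1.36 (log2 difference, SE 0.43, adjusted p = 0.00907) in surface glia against whole brain, which quantile normalization ended. GstZ1 ranged from 3.85 to 8.62 in surface glia, and its difference of -1.67 between neurons and whole brain had adjusted p = 0.0758.

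A further group was higher than whole brain in the glial sorts by amounts close to the rise of the controls. GstE14, the epsilon transferase Noppera-bo required for ecdysteroid synthesis, had log2 levels of 3.95 to 4.33 in whole brain, 4.63 to 4.87 in neurons, 4.88 to 6.68 in all glia and 4.90 to 6.19 in surface glia. Its log2 difference from whole brain was 1.47 in surface glia (SE 0.28) and 1.32 in all glia, the latter lost after quantile normalization, while the median of the negative controls was 2.65 in whole brain, 3.79 in all glia and 3.96 in surface glia. Ugt37A1 was similar, at 1.524 and 1.504 (SE 0.23). GstE11 was at 1.07 in surface glia and 1.04 in all glia, and GstE10 at 1.17 in all glia. The calls of GstE10 and GstE11 ended without array 4 of the glial sort in question and after quantile normalization.

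Genes of a class often lie side by side on a chromosome, and neighbours differed in level pattern. In the order of the reference gene table, a run on 3R held GstD10, GstD9, GstD1 and GstD2 to GstD8. There GstD9 (-3.64) and GstD1 (1.01) had opposite log2 differences between surface glia and whole brain. GstD3 was higher in surface glia than in neurons by 2.48 (SE 0.75) and lower in neurons than in whole brain by 2.99, while GstD2, GstD4, GstD5, GstD6, GstD8 and GstD10 lay within the controls in every group. On surface-glia array 4 GstD3 reached a log2 level of 10.5, against 5.48 to 7.96 on the others.

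A run on 2R held 9 GstE members, in the order GstE10, then GstE1 to GstE7, and GstE9, with GstE8 not analysed here. In surface glia against whole brain the log2 difference was -5.15 for GstE2 and 2.62 for its neighbour GstE3, 0.14 for GstE6 and 3.79 for its neighbour GstE7. GstE1 was higher in surface glia than in neurons by 2.06 (SE 0.45) and lower in neurons than in whole brain by 1.65. In 3 short Ugt runs 1 member each was called higher in surface glia against all other groups: Ugt302C1 beside Ugt302K1 and Ugt302E1, Ugt36D1 beside Ugt36F1 and Ugt36E1, and Ugt37D1 beside Ugt37E1 and Ugt37C2. Ugt302E1, Ugt36F1, Ugt37E1 and Ugt37C2 lay within the controls in all 4 groups. Related genes can share sequence, and binding of transcripts of one gene to the probes of another was not tested.

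**Figure D5:**
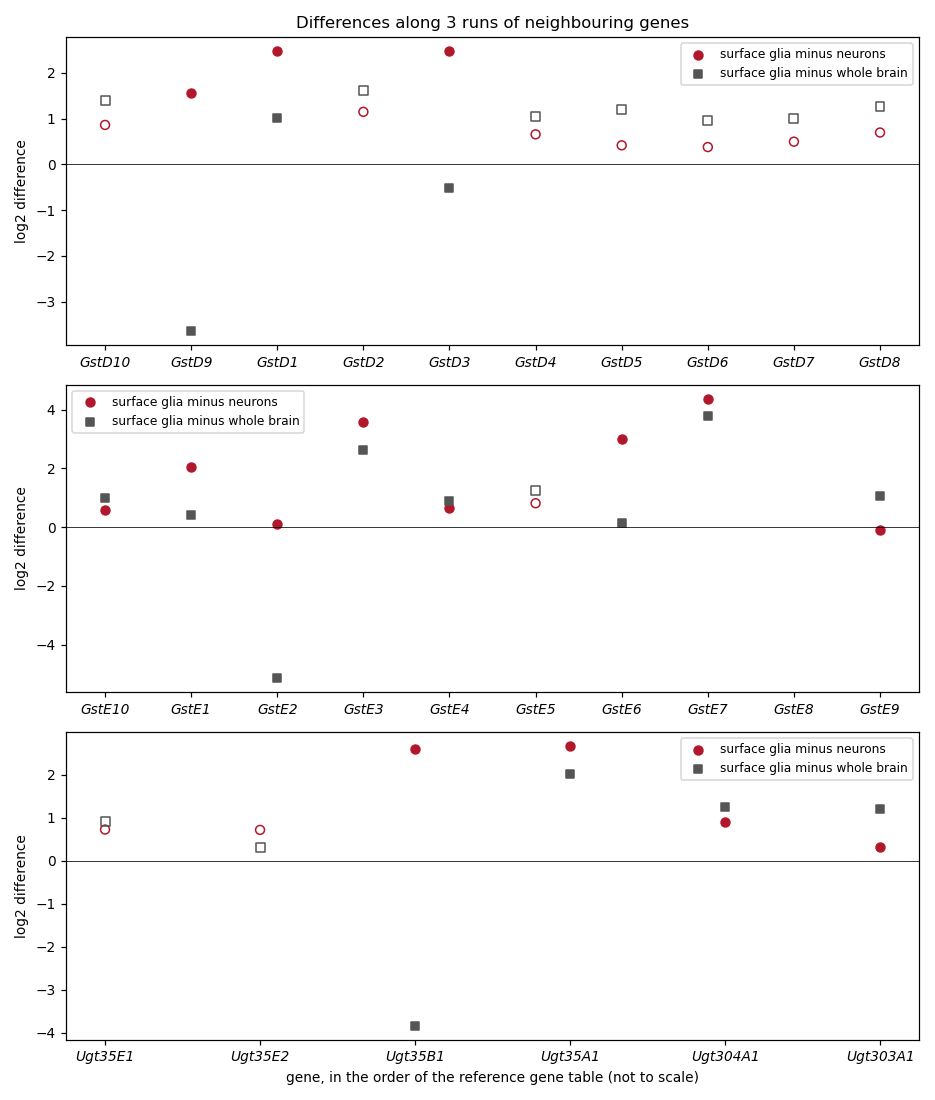
Log2 difference of surface glia from neurons (circles) and from whole brain (squares) for neighbouring genes, in the order of the reference gene table and not to scale. Open symbols mark genes within the controls in the brighter of the 2 groups, whether or not the dimmer group exceeded them. Ugt35E2, open against whole brain, exceeded the controls on 4 whole-brain arrays. GstE8 has no value. Adjacent genes differ in sign and size, as GstD9 (-3.64 against whole brain) and GstD1 (1.01) do.

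In the Ugt run of Ugt35E1, Ugt35E2, Ugt35B1, Ugt35A1, Ugt304A1 and Ugt303A1 on 3R, single surface-glia arrays decided several values. Ugt35A1 had surface-glia log2 levels of 3.93, 3.22, 7.63, 5.32 and 9.47, Ugt304A1 stood at 6.29 on array 1 and at 2.77 to 3.56 on the others, and Ugt303A1 at 7.03 on array 5 and at 3.44 to 3.84 on the others. Ugt302K1, of another run, was at 7.17 on array 3 and at 3.24 to 4.86 on the others. Surface glia therefore varied from array to array in which of these genes was above the controls. The log2 difference of Ugt35A1 over whole brain was 2.03 (SE 0.78, adjusted p = 0.0288).

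Glutathione supply was examined beside the transferases, through 8 measured genes of its synthesis, turnover and export. Of these, 3 were called higher in surface glia than in neurons, 3 higher and 1 lower than in whole brain, and 2 higher than in all glia, while limma called none lower than in neurons or all glia (1 and 0 at an unadjusted p under 0.05). For these 8 genes and the lists that follow, the shares of all probe sets called higher and lower were 10.4% and 15% against neurons, 31.6% and 19.4% against whole brain, and 2.46% and 2.29% against all glia. With lists this small, 3 of 8 higher than whole brain is near the share of all probe sets. Gclc, the catalytic subunit of the enzyme that limits glutathione synthesis, was at a log2 level of 11.1 in surface glia, 9.82 in all glia, 9.73 in neurons and 9.96 in whole brain. Its log2 difference was 1.37 over neurons (SE 0.23), 1.28 over all glia and 1.13 over whole brain, with no overlap of arrays in any of them. Mrp4, an ABC transporter, was higher by at least 2.17 than neurons and at least 1.42 than all glia, and by 2.78 than whole brain (SE 0.41). MRP, an exporter of glutathione conjugates, was higher than whole brain by 1.62 (SE 0.43). CG4829, of the gamma-glutamyl transpeptidases that break glutathione down, was higher than neurons by 1.36 and lower than whole brain by 1.84.

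Of 4 glutathione transferases with other names, surface glia were called higher in the same 2 against neurons and against whole brain. They were the microsomal Mgstl, at log2 differences of 2.86 (SE 0.40) and 2.08, and se, an omega transferase of eye pigment synthesis, at 1.36 and 1.86. Of 11 thiol and peroxide defence genes, 2 exceeded neurons in surface glia: Sod3, an extracellular superoxide dismutase, by 4.56 (SE 0.54) and the catalase gene Cat by 1.49. Against whole brain 4 of the 11 were higher, again near the 31.6% of all probe sets, and 1 was lower, the glutaredoxin gene Grx1 at -3.22 (SE 0.72), with Grx1t at 1.40, and Prx1 lay within the controls in both groups. Of 6 regulators of the antioxidant response, 1 was called lower in surface glia than in neurons, tgo at -2.06 (SE 0.64), and limma called none higher (1 at an unadjusted p under 0.05).

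Of 5 genes of UDP-sugar supply, 2 were lower in surface glia than in whole brain. They were sgl, which makes UDP-glucuronic acid, at -1.48 (log2 difference, SE 0.56) and the nucleotide-sugar transporter gene Efr at -1.83 (SE 0.62). None of the 5 was called against neurons by limma, with 1 higher at an unadjusted p under 0.05. The log2 medians of the lists in surface glia against neurons were 0.634 for glutathione supply, 0.408 for thiol and peroxide defence, -0.275 for the regulators and 0.09 for UDP-sugar supply, beside 0.36 for all probe sets.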

How the data were processed

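The authors deposited 1 table of log2 values, a row for each probe set. The submitters' processing notes name RMA, affy and limma and give no version of them. RNA was amplified before labelling, per the labels' protocols. The log2 scale was taken from that method and checked against the range of the values. The table held 18952 probe sets, and 183 control probe sets were left out of the tests. Among the other 18769, 13647 carried 1 gene symbol in the annotation, 402 several and 4720 none. All 69 symbols matched the reference gene table, which gave names and neighbours only.

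The test was limma 3.58.1 (R 4.3.3) with a mean for each group, all 20 arrays in 1 fit, an empirical Bayes spread and Benjamini-Hochberg adjustment. The fit was tested on simulated data in which each probe set had the same spread in every group. The real groups differed in spread, so that test does not cover unequal spread. The number of arrays limits the precision. Alternatives were another normalization, centring, a filter on dim probe sets (14571 kept), a replicate block, fits of 2 groups, array weights, arrays left out and the mean of a gene's probe sets. Deviations of same-numbered arrays correlated at under 0.1, except for 2 of 5 pairs between the glial sorts, so the numbers were not taken as pairs.

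The members and lists were chosen with earlier results of these data known. Genes named were the small subfamilies, GstE7, GstS1 and Ugt302C1, up to 5 largest rises and falls per comparison, genes separating surface glia from each other group, those opposing their subfamily, and those whose probe sets disagree. From each pathway list they were up to 3 with the largest called differences. GstD3, GstE1, GstD2, Ugt35A1, Ugt304A1, Ugt303A1, Ugt302K1 and Yp1, Yp2, Apoltp, FASN1, Gs2 and genes lying within the controls were named outside this rule, after their values were seen.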

Additional observations from a re-analysis of the deposited data

Results flagged for a closer look

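Of 136 groups of 5 arrays, for 34 named genes in 4 groups, 9 had 1 array far from the other 4. That number is near the share of about 5% that chance gives, and the genes share the same arrays. Of the 9, 6 lay on array 4 of a glial sort. On all-glia array 4, log2 levels were 6.23 for GstE10 (4.82 to 5.12 on the others), 6.87 for GstE11 (5.08 to 5.59), 6.67 for Ugt37A1 (5.15 to 5.58) and 3.27 for GstS1 (8.62 to 9.70). On surface-glia array 4 they were 10.27 for GstE6 (5.79 to 6.29) and 6.51 for GstT1 (7.70 to 8.04). The other 3 were GstE12 at 9.58 on whole-brain array 1 (10.1 to 10.22), GstO1 at 6.61 on neuron array 2 (4.92 to 5.37) and Ugt302C1 at 3.20 on neuron array 5 (3.55 to 3.65).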

How the results depend on the processing

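Of the 86 calls of named genes, no alternative reversed a direction. Calls were lost under quantile normalization (15), in fits of only the 2 groups compared (12), with array weights (8), without both arrays 4 of the glial sorts (6) and in 1 case each under centring, the filter on dim probe sets, the replicate block and the mean of probe sets, and 18 calls were lost when some array was left out. For surface glia against whole brain the 30 higher members became 12 under quantile normalization, 15 with the filter and 19 among members above the controls in the brighter group. The 10 higher than in all glia became 1 in the 2-group fit, and without both arrays 4 of the glial sorts 1 member was called lower. The 19 higher in all glia than in whole brain became 2 under quantile normalization, 8 with the filter, 9 with array weights, 10 without both arrays 4 and 8 among members above the controls. The member lower in all glia than in neurons became 2, 3 and 2 members in the 2-group fit, with array weights and without both arrays 4. The 2 higher in neurons than in whole brain became 1 under quantile normalization and with the mean of probe sets. The causes were not tested beyond the smaller sets of genes and arrays. With single arrays left out, the counts higher and lower were 20 to 23 and 1 to 2 for surface glia against neurons, 25 to 34 and 5 to 6 against whole brain, and 7 to 12 and 0 to 1 against all glia. For all glia they were 7 to 12 and 1 to 2 against neurons and 10 (without all-glia array 4) to 21 and 8 to 11 against whole brain, and for neurons against whole brain 1 to 3 and 12 to 15. Replicate numbers were not taken as pairs, and correlations of same-numbered deviations stayed under 0.1 outside the glial sorts. Between the glial sorts they ran from 0.013 to 0.378, with 2 of 5 over 0.1, at 0.378 for array 4 and 0.195 for array 1. Some shared deviation of same-numbered glial arrays is therefore present, and its source was not tested. With the replicate block the counts higher and lower were 21 and 1, 30 and 6, 9 and 0, 10 and 1, 19 and 10, and 2 and 15, in the order surface glia against neurons, whole brain and all glia, all glia against neurons and whole brain, and neurons against whole brain. A second set of 50 negative controls placed 13 members, not 21, within the controls in every group.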
